A study of Mus musculus with 50 samples.

Results

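The 9 genes described here are Sesn1, Sesn2 and Sesn3, Ddit4 and its paralog Ddit4l, the receptor gene Eda2r and its ligand gene Eda, Mdm2 and Trp53. They were selected by symbol, out of 23880 genes in the deposited tables, with earlier results on the same mice in view, including differences between 28 and 8 months-old mice. Their levels by age are therefore given as a description. No p-value is given for a difference of the 9 between ages, and where a gene is said to be past FDR 0.01 this describes the fit and carries no weight as a test. All 9 passed the filter on low counts (1 CPM, a count scaled to library size, reached in no fewer than 8 mice), as did 12586 genes in all. RNA was sequenced from the gastrocnemius, a calf muscle, of 50 male mice of the inbred strain C57BL/6JRj, 1 library per mouse. The groups of 8, 18, 22 and 24 months held 8 mice each, and those of 26 and 28 months held 9. The labels name no engineered allele and no treatment for any of these mice, and animals found ill or with tumors at dissection did not enter the study. The purified diet AIN-93M was given for at least 2 months before the endpoint at 8 and 18 months, and from 18 to 19 months of age onward in the mice of 22 to 28 months. Age and diet history thus cannot be told apart in a comparison of 22 to 28 months with 8 months, whereas 8 and 18 months shared a diet rule. Values of 28 against 22 months, with the same diet rule at both ages, are given beside those against 8 months. The mice of 28 months had been on the diet for longer than those of 22 months.

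The transcription factor p53, encoded by Trp53, is held at a low level by Mdm2, a ubiquitin ligase that marks it for degradation and is itself a p53 target gene. The 3 sestrins are stress-induced proteins that bind the GATOR2 complex and lower the activity of mTORC1, the kinase complex that drives protein synthesis and growth, and Sesn2 is known as a leucine sensor. Ddit4, also called REDD1, lowers mTORC1 activity through the TSC complex and is known to be induced by hypoxia, glucocorticoids and p53, and Ddit4l, or REDD2, is a related inhibitor expressed in skeletal muscle. Eda2r, also called XEDAR, is a receptor of the TNF receptor superfamily that binds one splice form of ectodysplasin A, the product of Eda, and signals toward NF-kB. Sesn1, Ddit4, Eda2r and Mdm2 are all known from textbooks and reviews as p53-inducible genes.

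In GENCODE vM21 on GRCm38, 3 of the 9 genes lay on chromosome 10 and 2 on the X chromosome, and all 9 were annotated as protein coding. Sesn1 is at chr10:41809935-41908424 on the plus strand, Sesn2 at chr4:132492032-132510501 on the minus strand and Sesn3 at chr9:14275067-14333101 on the plus strand. Ddit4, the shortest of the 9 at 2166 bases, is at chr10:59949669-59951834 on the minus strand, and Ddit4l is at chr3:137621612-137628333 on the plus strand. Eda2r is at chrX:97333840-97377216 on the minus strand, and Eda, the longest at 425157 bases with 9 coding transcripts, at chrX:99975606-100400762 on the plus strand, 2.60 Mb from it. Mdm2 is at chr10:117688875-117710758 on the minus strand and Trp53 at chr11:69580359-69591873 on the plus strand. Because the deposited values are sums over the transcripts of a gene, the splice forms of Eda could not be told apart.

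RefSeq promoter windows on GRCm38.p6, from 250 bases before to 50 bases after the annotated start, were matched by symbol for all 9 genes, and Sesn1 had 2 of them. The windows of the 3 genes with the largest differences between 28 and 8 months are printed because they show how unlike these promoters are. Capitals mark matches to 5 motifs searched on both strands. The first is the p53 half-site, a motif given by name and called the p53 decamer below. The others are the FoxO element GTAAACA, the hypoxia response core ACGTG, the glucocorticoid receptor half-site TGTTCT and the TATA box TATAAA. The window of Eda2r is chrX:97377160-97377459 on the minus strand, that of Ddit4 is chr10:59951721-59952020 on the minus strand, and that of the downstream start of Sesn1 is chr10:41887189-41887488 on the plus strand.
Eda2r: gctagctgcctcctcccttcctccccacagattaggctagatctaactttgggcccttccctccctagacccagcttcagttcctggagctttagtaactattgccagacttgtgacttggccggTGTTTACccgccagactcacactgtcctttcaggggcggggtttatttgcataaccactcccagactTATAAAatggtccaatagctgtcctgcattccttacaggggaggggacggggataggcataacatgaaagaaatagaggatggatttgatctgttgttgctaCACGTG
Ddit4: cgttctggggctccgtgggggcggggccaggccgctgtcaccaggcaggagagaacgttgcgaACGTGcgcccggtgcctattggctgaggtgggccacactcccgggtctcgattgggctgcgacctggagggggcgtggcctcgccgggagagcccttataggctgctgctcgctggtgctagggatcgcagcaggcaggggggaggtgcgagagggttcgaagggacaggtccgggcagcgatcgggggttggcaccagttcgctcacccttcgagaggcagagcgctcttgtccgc
Sesn1: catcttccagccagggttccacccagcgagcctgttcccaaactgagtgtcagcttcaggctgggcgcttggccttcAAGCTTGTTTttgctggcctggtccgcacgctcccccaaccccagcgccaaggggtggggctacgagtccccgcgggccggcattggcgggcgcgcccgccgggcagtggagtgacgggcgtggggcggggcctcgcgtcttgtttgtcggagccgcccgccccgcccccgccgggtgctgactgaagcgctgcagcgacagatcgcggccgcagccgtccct
The Eda2r window was 50.3% GC and held the FoxO element in its reverse orientation 125 bases before the start, a TATA box 58 bases before it and the hypoxia response core in both orientations near its end. The Ddit4 window was 69.0% GC and held 1 hypoxia response core. The Sesn1 window was 71.0% GC and held 1 p53 decamer 173 bases before the start, whereas the upstream Sesn1 window held none and had a FoxO element in reverse orientation 23 bases after its start.

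A p53 decamer was found in 4 of the 10 windows of the 9 genes and in 8.36% of the 32851 promoter windows of all genes. The 4 windows were those of Sesn1 (downstream start), Ddit4l, Mdm2 and Trp53, each with 1 decamer, that is 1 half-site. Whether p53 binds any of them was not tested. The FoxO element was in 3 of the 10 and in 3.65% of all windows, the hypoxia response core in 3 of the 10 and 19.6%, the TATA box in 3 of the 10 and 13.62%, and the glucocorticoid receptor half-site in 1 of the 10 and 18.97%. Stretches of 40 bases around the decamers are given next, with the decamer in capitals, together with those of Cdkn1a, the gene of the cell cycle inhibitor p21 and a classical p53 target, for comparison.
Mdm2: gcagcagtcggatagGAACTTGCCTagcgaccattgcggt
Trp53: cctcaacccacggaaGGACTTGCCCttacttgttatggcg
Ddit4l: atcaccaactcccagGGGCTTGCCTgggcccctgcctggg
Cdkn1a: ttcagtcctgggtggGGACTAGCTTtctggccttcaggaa
Cdkn1a: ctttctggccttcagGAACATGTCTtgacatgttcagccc
They lie at chr10:117710920-117710959 (minus strand, Mdm2), chr11:69580269-69580308 (Trp53), chr3:137623567-137623606 (Ddit4l), chr17:29090891-29090930 and chr17:29090913-29090952 (Cdkn1a). Mdm2 is known to have a p53-responsive promoter inside its first intron, downstream of this start. Both decamers of Cdkn1a lie in the window of its upstream start, whereas the window of its downstream start held none. No decamer was found in the windows of Eda2r, Eda, Ddit4, Sesn2 or Sesn3, which says only that these letters are not there.

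Over the 50 mice, the 9 genes covered a wide range of levels in TPM, a value scaled by transcript length and library size. Ddit4l was the highest by mean (228 TPM), followed by Ddit4 (126 TPM), Mdm2 (57.3 TPM), Eda2r (43.3 TPM) and Sesn1 (42.6 TPM), and Eda (1.30 TPM) and Sesn2 (1.87 TPM) were the lowest. No member was at 0 in any mouse, and the lowest count behind a value was 28 reads for Eda and 35 for Sesn2, so that these 2 carry the most counting error. Total counts per mouse lay between 13607229 and 21267375. Between 28 and 8 months, 5 of the 9 genes were past FDR 0.01 in edgeR's fit, 3 higher (Sesn1, Ddit4 and Eda2r) and 2 lower (Eda and Ddit4l), beside 39.6% of all genes tested (21% higher and 18.7% lower). Because this contrast was in view when the genes were chosen, nothing is read from the count. The median log2 fold change of the 9 was 0.18, against 0.01 for all genes tested. The same genes except Ddit4l were past the threshold at 26 months (4 of 9, beside 18.4% of all genes), and none of the 9 was at 24 months (0.612% of all genes), 22 months (0.0397%) or 18 months (0.0715%). These comparisons share the 8 months-old mice. Between 28 and 22 months, the 5 genes named for 28 against 8 months were past it again, beside 27.7% of all genes.

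**Figure D1:**
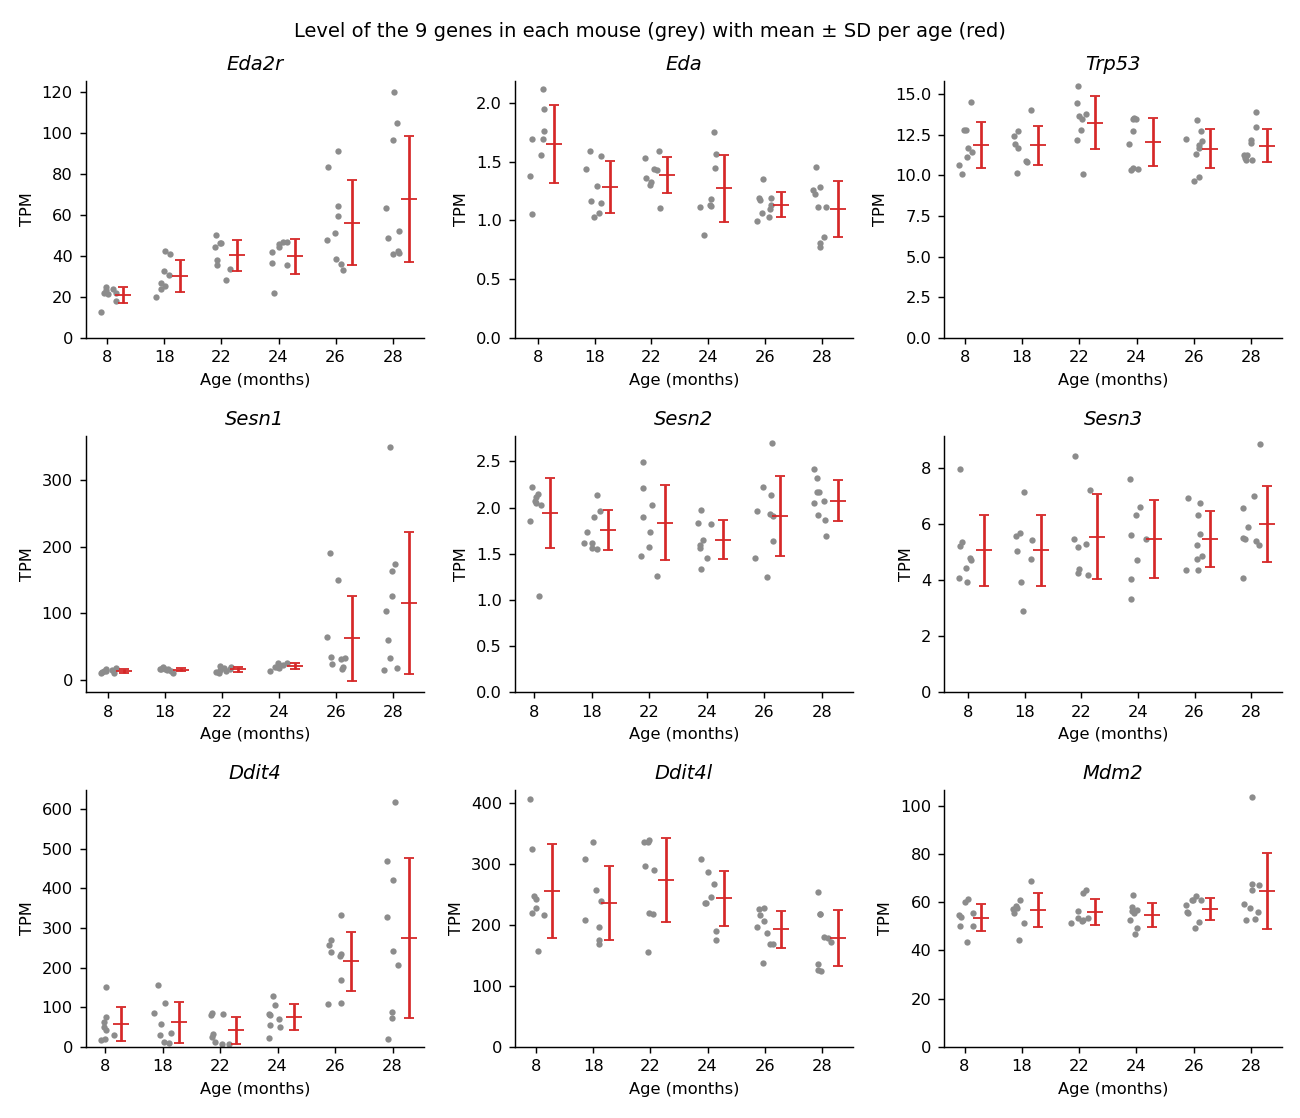
TPM of each of the 9 genes (y axis, from 0 except for Sesn1, whose error bar at 26 months reaches below 0) against age in months (x axis, equally spaced), with 1 grey point per mouse and the mean ± SD in red beside each age (n = 8 at 8 to 24 months, n = 9 at 26 and 28 months). The mean of Eda2r is higher at every later age than at 8 months, and it is 40.3 and 39.9 TPM at 22 and 24 months. Sesn1 and Ddit4 are high in most but not all mice of 26 and 28 months, and Trp53 stays between 9.63 and 15.5 TPM.

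At 18 months, more mice lay outside the 8-month range in Eda2r than in any other of the 9 genes. Its lowest, median and highest values were 12.6, 21.7 and 24.9 TPM at 8 months, 19.9, 28.7 and 42.1 TPM at 18 months and 28.4, 41.1 and 50.3 TPM at 22 months. They were 21.7, 43.1 and 46.7 TPM at 24 months, 33.3, 51.4 and 91.4 TPM at 26 months and 41.0, 52.1 and 120 TPM at 28 months. Every 8 months-old mouse was exceeded by 6 of the 8 mice of 18 months, all 8 of 22 months, 7 of the 8 of 24 months and all 18 of 26 and 28 months. The mean was 20.9 ± 3.92 TPM at 8 months (SD, n = 8) and 67.8 ± 30.9 TPM at 28 months (SD, n = 9), a log2 fold change of 1.55 (SE 0.20). In the order of the means, 24 and 22 months were neighbors closer than their pooled SD, as were 26 and 28 months, and the steps from 8 to 18, from 18 to 24 and from 22 to 26 months exceeded it, with overlapping ranges throughout. The log2 fold change was already 0.49 (SE 0.20) at 18 months, 0.90 (SE 0.20) at 22 months and 0.87 (SE 0.20) at 24 months. Of the total difference, 0.65 (SE 0.19) lay between 22 and 28 months, ages with the same diet rule. With upper-quartile factors that value was 0.57 and no longer past FDR 0.01.

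Its ligand gene Eda was at a low level and went the other way. The lowest, median and highest values were 1.05, 1.69 and 2.12 TPM at 8 months and 0.774, 1.12 and 1.45 TPM at 28 months, where 3 of 9 mice lay below all 8 months-old mice. The mean went from 1.65 ± 0.331 TPM (SD, n = 8) to 1.10 ± 0.238 TPM (SD, n = 9), a log2 fold change of -0.69 (SE 0.12), and the ranges overlapped. At 18, 22, 24 and 26 months the log2 fold change against 8 months was -0.35 (SE 0.12), -0.24 (SE 0.12), -0.44 (SE 0.13) and -0.53 (SE 0.12). The step between 8 months and the next age in order, 22 months, was the only one between neighboring means that exceeded the pooled SD.

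At 18 months, the ratio of receptor to ligand TPM within a mouse lay outside its 8-month range in more mice than either gene did. Eda2r over Eda had a lowest, median and highest value of 8.56, 12.8 and 16.9 at 8 months, 17.8, 20.7 and 38.2 at 18 months and 33.3, 38.5 and 155 at 28 months. All 8 mice of 18 months, all 8 of 22 months, 7 of 8 of 24 months and all 18 of 26 and 28 months lay above every 8 months-old mouse. The medians of 24 (39.2), 26 (40.1) and 28 months (38.5) were close, and the highest values rose to 47.8, 83.3 and 155. Both genes took part in the choice, so the ratio is a description as well.

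**Figure D2:**
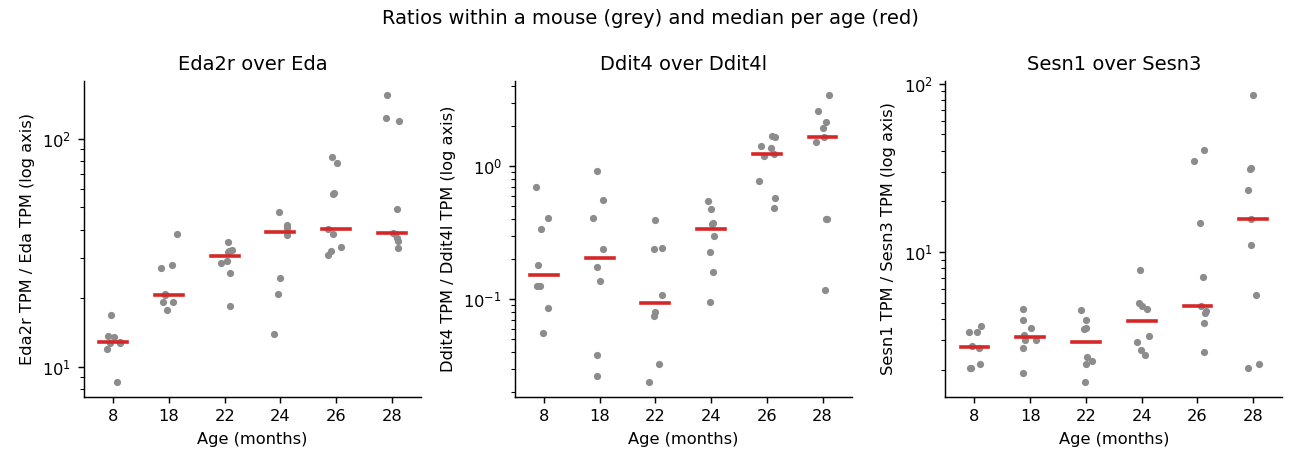
Ratio of the TPM of 2 members within each mouse (y axes, log scale) against age in months (x axes, equally spaced), with 1 grey point per mouse and the median per age as a red bar, for Eda2r over Eda, Ddit4 over Ddit4l and Sesn1 over Sesn3. The median of Eda2r over Eda is 12.8 at 8 months and 20.7 at 18 months, whereas the median of Ddit4 over Ddit4l is below 1 up to 24 months and 1.25 and 1.66 at 26 and 28 months.

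Among the sestrins, the difference with age was found in Sesn1. Its lowest, median and highest values were 10.2, 13.64 and 17.4 TPM at 8 months, 10.4, 16.4 and 19.1 TPM at 18 months, 9.92, 15.9 and 21.6 TPM at 22 months and 13.3, 21.26 and 25.97 TPM at 24 months. They were 15.97, 32.4 and 191 TPM at 26 months and 15.2, 104 and 349 TPM at 28 months. The 2 oldest groups thus reached from the level of 8 months-old mice to more than any younger mouse, and 13 of their 18 mice lay above all 32 mice of 8 to 24 months. At 28 months the 9 mice had 174, 349, 18.2, 15.2, 163, 32.6, 125, 104 and 60.4 TPM (replicates 1 to 9). The mean rose from 13.5 ± 2.62 TPM at 8 months (SD, n = 8) to 116 ± 106 TPM at 28 months (SD, n = 9), a log2 fold change of 2.96 (SE 0.43), and only 0.191% of the genes tested had one as large in either direction. Without 28 months replicate 2, the highest mouse, it was 2.61. Against 22 months it was 2.77 (SE 0.43). The step from 22 to 24 months was the only one between neighboring means that exceeded the pooled SD. The coefficient of variation across mice went from 19.4% at 8 months to 91.6% at 28 months, while the median over 12452 expressed genes went from 17.4% to 21.1%, and 98.7% of these genes varied less than Sesn1 at 28 months.

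Sesn2 and Sesn3 stayed near their 8-month levels. Sesn2 had 1.05, 2.06 and 2.22 TPM as lowest, median and highest value at 8 months and 1.69, 2.07 and 2.41 TPM at 28 months. Its log2 fold change of 0.03 (SE 0.12) had no stable sign and was -0.03 with upper-quartile factors. Sesn3 had 3.95, 4.75 and 7.97 TPM at 8 months and 4.09, 5.52 and 8.86 TPM at 28 months, a log2 fold change of 0.20 (SE 0.14). For both genes every pair of ages that were neighbors in mean differed by less than the pooled SD. The share of Sesn1 in the summed TPM of the 3 sestrins went from 65.7% ± 5.06 (SD, n = 8) at 8 months to 85.6% ± 14.2 (SD, n = 9) at 28 months. It was between 59.6% and 72.6% in the 8 months-old mice and between 61.9% and 98.2% in the 28 months-old mice.

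Ddit4 was variable at every age and higher in the 2 oldest groups. Its lowest, median and highest values were 17.9, 47.2 and 150 TPM at 8 months, 8.79, 46.1 and 156 TPM at 18 months, 6.99, 28.3 and 85.6 TPM at 22 months and 22.4, 75.7 and 129 TPM at 24 months. They were 108, 234 and 333 TPM at 26 months and 19.96, 242 and 618 TPM at 28 months. Of the 9 mice at 28 months, 6 lay above all 8 months-old mice, and the lowest was within their range. The mean went from 56.5 ± 43.0 TPM (SD, n = 8) to 274 ± 202 TPM (SD, n = 9), a log2 fold change of 2.21 (SE 0.55), and it was 1.96 (SE 0.54) at 26 months and 2.65 (SE 0.56) against 22 months. The only step between neighboring means that exceeded the pooled SD was the one from 24 to 26 months. Already at 8 months, where the coefficient of variation of Ddit4 was 76.2%, 99.5% of the expressed genes varied less across mice.

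The paralog Ddit4l, at a higher level in the younger mice, was lower at 28 months. It had 157, 234 and 406 TPM as lowest, median and highest value at 8 months and 124, 178 and 253 TPM at 28 months, where 3 of 9 mice lay below all 8 months-old mice and the others within their range. The mean went from 255 ± 76.8 TPM (SD, n = 8) to 178 ± 45.2 TPM (SD, n = 9), a log2 fold change of -0.61 (SE 0.18). No step between neighboring means exceeded the pooled SD. It was past FDR 0.01 in the fit of all ages but no longer in a fit of the 8 and 28 months-old mice alone (-0.61) or without any 1 of 5 single mice, 8 months replicate 1 (-0.53) or 5 (-0.49) or 28 months replicate 7 (-0.55), 8 (-0.55) or 9 (-0.57). The ratio of Ddit4 to Ddit4l had a median of 0.153 at 8 months, 0.206 at 18, 0.0936 at 22, 0.335 at 24, 1.25 at 26 and 1.66 at 28 months. In 7 of 9 mice at 26 months and 6 of 9 at 28 months it lay above every 8 months-old mouse.

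Mdm2 and Trp53 were expressed at an even level in all 6 ages. Mdm2 had 43.5, 54.2 and 61.2 TPM as lowest, median and highest value at 8 months and 52.4, 59.1 and 103 TPM at 28 months, a log2 fold change of 0.18 (SE 0.07). The value of 103 TPM came from 28 months replicate 2, and leaving it out gave a log2 fold change of 0.10. Trp53 had 10.1, 11.5 and 14.5 TPM at 8 months and 10.9, 11.3 and 13.9 TPM at 28 months, with log2 fold changes of -0.06 (SE 0.08) against 8 months and -0.19 (SE 0.08) against 22 months, where its mean was highest at 13.2 ± 1.63 TPM (SD, n = 8). For both genes every pair of ages next to each other in mean differed by less than the pooled SD. The abundance of an mRNA says nothing of the p53 protein, which is controlled largely by its stability.

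**Figure D3:**
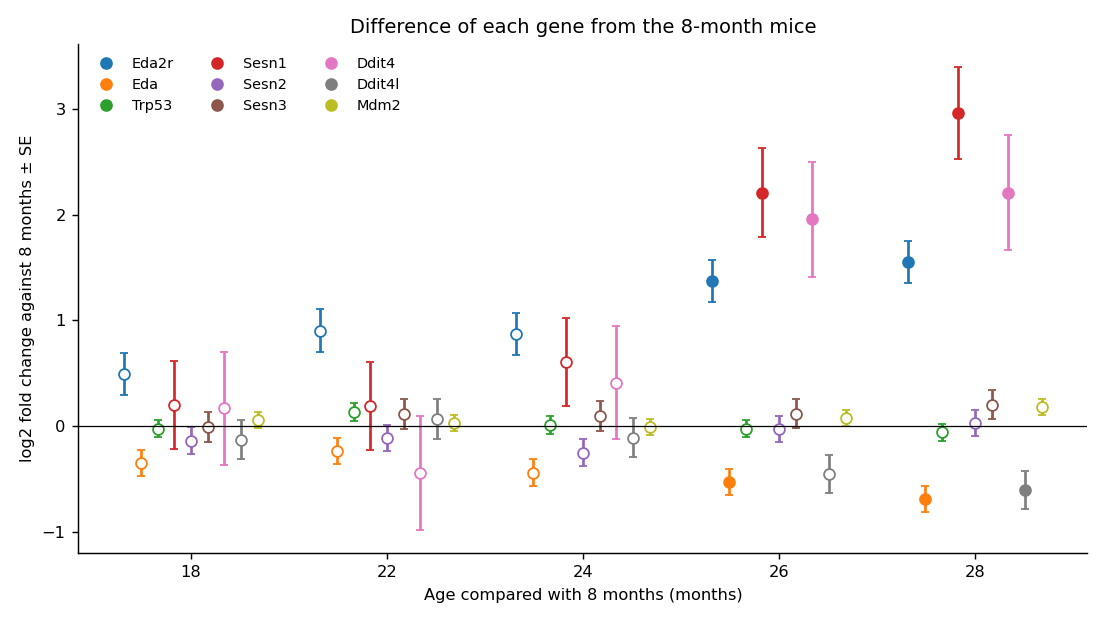
log2 fold change of each of the 9 genes against the 8 months-old mice (y axis, points ± SE from edgeR) at 18, 22, 24, 26 and 28 months (x axis, categories, with the genes set side by side). Filled points are past FDR 0.01 and open points are not. Eda2r lies at 0.49 already at 18 months, and Sesn1 and Ddit4 lie at 2.21 and 1.96 at 26 months and at 2.96 and 2.21 at 28 months.

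The mice that were high in Sesn1 were often high in Ddit4 and Eda2r too. At 28 months, replicates 1, 2, 5, 7 and 8 lay above all 32 mice of 8 to 24 months in each of the 3 genes, and replicates 3 and 4 in none of them. At 26 months, replicates 1, 3, 8 and 9 did so in all 3 and replicate 4 in none. The members were also compared within ages, as deviations of log2(TPM + 1) from the mean of the age. This takes out the differences between age means. The spread among mice of 1 age stays in, such as 15.2 to 349 TPM for Sesn1 at 28 months. Genes chosen for a difference at 28 months could have been chosen through that spread. The p-values below are therefore not free of the choice. The 36 pairs of members and 45 pairs of a member with 1 of 5 further genes were computed (Cdkn1a, the p53 target Phlda3, the acetylcholine receptor subunit gene Chrna1, the leukocyte gene Ptprc and the glucocorticoid-induced gene Fkbp5). P-values came from 100000 permutations of mice within ages (two-sided, n = 50) and were adjusted over the 81 relations. Both Pearson's r and Spearman's rho were past adjusted p = 0.05 in 10 of the 81. How many of all expressed genes would have such a relation with a member was not computed. Whether the relations below are particular to these genes was thus not tested.

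Sesn1 and Eda2r moved together within ages, with r = 0.66 and rho = 0.58 (permutation test, adjusted p = 0.000945 and 0.00275), with a positive r at 6 of 6 ages. The r was 0.84 at 26 months and 0.79 at 28 months (n = 9 each), and 0.22, 0.51, 0.10 and 0.14 at 8, 18, 22 and 24 months (n = 8 each), given as descriptions. Without the 2 mice farthest from the median of Sesn1, the r over all ages was 0.58. Eda2r and Mdm2 had r = 0.67 and rho = 0.67 (permutation test, adjusted p = 0.000202 and 0.00027, from the smallest p that the permutations can give), with r between 0.21 (24 months) and 0.84 (8 months) within the 6 ages, and r was 0.67 without the 2 farthest mice and 0.62 without 28 months replicate 2. Mdm2, whose mean differed little between ages, thus varied with Eda2r from mouse to mouse. Sesn1 and Ddit4 were related less closely, with r = 0.47 and rho = 0.44 (permutation test, adjusted p = 0.0044 and 0.0181) and r = 0.43 without the 2 farthest mice. Its r was 0.89 at 28 months and 0.50 at 26 months, and between 0.03 and 0.23 at the 4 younger ages. Ddit4 and Eda2r had r = 0.20, which did not pass. Sesn3 was related negatively to Ddit4, with r = -0.44 and rho = -0.40 (permutation test, adjusted p = 0.0222 and 0.0389), and positively to Eda, with r = 0.48 and rho = 0.46 (permutation test, adjusted p = 0.0103 and 0.0161). Without the 2 farthest mice these were -0.47 and 0.45. Within ages, the r with Ddit4 was negative at 5 of 6 ages and 0.30 at 8 months, and that with Eda was positive at 6 of 6. No relation of Sesn2, Ddit4l or Trp53 passed in both measures.

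Of the 5 further genes, Fkbp5 and Cdkn1a had relations that passed in both measures. Fkbp5 had r = 0.70 with Sesn1, 0.69 with Ddit4 and -0.39 with Sesn3 (permutation test, adjusted p of r 0.000202, 0.000202 and 0.0303), and rho = 0.60, 0.71 and -0.43 (adjusted p 0.000607, 0.00027 and 0.0244). Cdkn1a had r = 0.68 with Sesn1 and 0.61 with Ddit4 (permutation test, adjusted p of r 0.000324 and 0.000202), and rho = 0.54 and 0.65 (adjusted p 0.0054 and 0.00027). Its r of 0.50 with Eda2r and 0.52 with Mdm2 passed but not the rho of 0.39 and 0.37 (permutation test, adjusted p of rho 0.0647 and 0.0719). Without the 2 farthest mice, the r of Fkbp5 was 0.61 with Sesn1, 0.63 with Ddit4 and -0.48 with Sesn3, and that of Cdkn1a 0.56 with Sesn1 and 0.59 with Ddit4. Within ages, the r of Fkbp5 with Sesn3 was negative at 5 of 6 ages and 0.33 at 8 months. The r of the other 4 relations was positive at 6 of 6 ages, and with Sesn1 it ran from 0.02 (8 months) to 0.92 (28 months) for Fkbp5 and from 0.04 (24 months) to 0.92 (28 months) for Cdkn1a. Phlda3 and Chrna1 had no relation past the threshold in either measure, with r between -0.25 and 0.02 and between -0.04 and 0.28. The leukocyte gene Ptprc had r = 0.58 with Mdm2 (permutation test, adjusted p = 0.0237), but rho was 0.27 (adjusted p = 0.181) and r was 0.33 without 28 months replicate 2, the mouse with the highest summed level of the 7 immune markers (68.8 TPM, against 25.2 to 39.2 TPM in the other 28 months-old mice). With Sesn2, Ptprc had r = 0.35 (permutation test, adjusted p = 0.0316), which was 0.34 without that mouse. Spearman's rho of that pair was 0.22 and did not pass (permutation test, adjusted p = 0.267). The part of leukocytes in these relations was not tested.

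**Figure D4:**
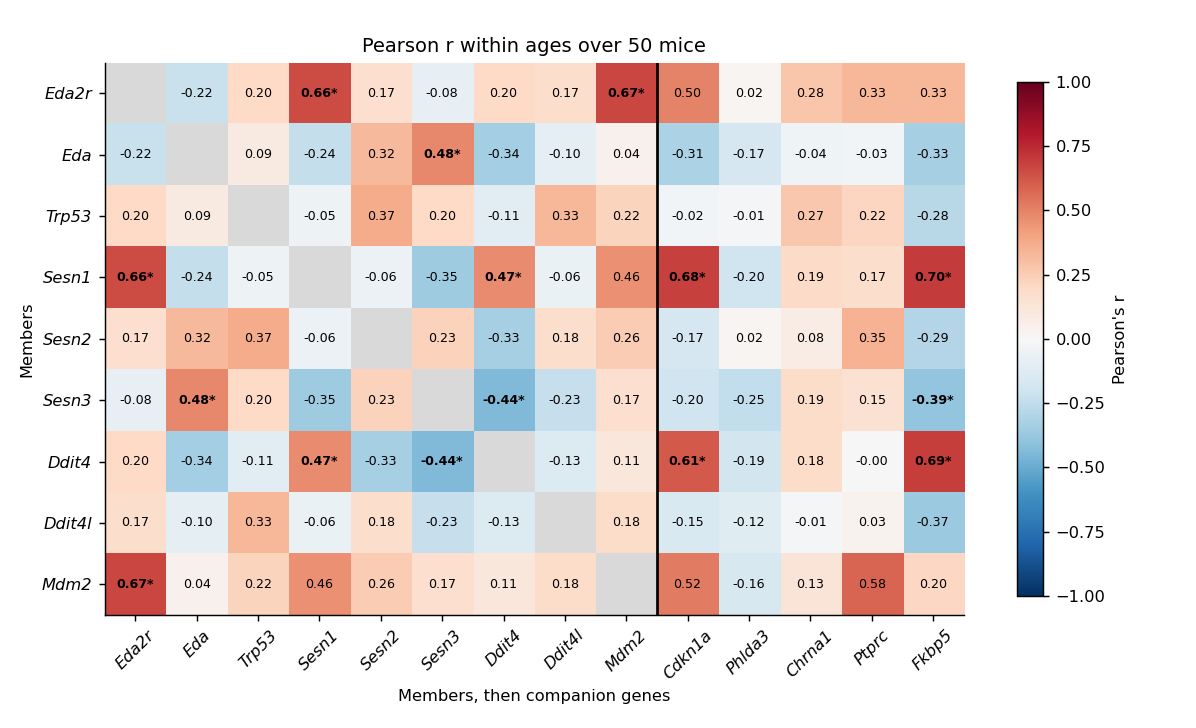
Pearson's r of deviations from the age mean of log2(TPM + 1) over 50 mice (color scale from -1 to 1, value in each cell), with the 9 genes in rows and the 9 genes and 5 further genes in columns. Asterisks mark relations past adjusted p = 0.05 in both r and rho, and the row of Trp53 has none, whereas Sesn1 has them with Eda2r (0.66), Ddit4 (0.47), Cdkn1a (0.68) and Fkbp5 (0.70).

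The genes most like each member were found by Pearson's r of log2(TPM + 1) over the 50 mice of 6 ages, among 12452 expressed genes, and these values include the differences between ages. For Sesn1 they were Zfyve1 (r = 0.96), Vegfd (0.95) and Eif4ebp1 (0.95), and for Ddit4 Tsc22d3 (0.91), 8430408G22Rik (0.90) and Slc10a6 (0.89). For Eda2r they were Hook1 (0.94), Ufl1 (0.89) and Psmc3 (0.87), and for Mdm2 Rab6a (0.88), Ubap1 (0.87) and Rad23b (0.87). Looser were the likenesses of Sesn3, with Klhdc10 (0.78), Mllt6 (0.78) and Nfic (0.77), of Eda, with Cables2 (0.73), Olfml2b (0.71) and Ergic1 (0.71), and of Ddit4l, with Klhl8 (0.67), Klhl31 (0.64) and Ttyh2 (0.63). Sesn2 with Shc1 (0.56), Rps6kc1 (0.56) and Secisbp2l (0.55), and Trp53 with Mogs (0.54), Ralgds (0.54) and Dennd2c (0.54), had no close match. No member was among the 3 closest genes of another member.

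Other genes of the pathways around these 9 were fitted with edgeR between 28 and 8 months and are counted by list. Beside the counts stand the 21% of all genes that were higher and the 18.7% that were lower. The lists here and below, too, were chosen with earlier results of these mice known, and most genes named had the largest differences of their list. Counts and FDR values of the lists therefore describe the fit and carry no weight as a test. Of 28 p53 target genes other than the members, 24 passed the filter, 7 were higher (29.2% of those tested), 3 were lower (12.5%) and 14 did not pass, with a median log2 fold change of 0.25 against 0.01 for all genes. The shares lay near those of all genes. Between 28 and 22 months, 8 were higher and 1 lower, beside the 27.7% of all genes past the threshold there in either direction. For that comparison the share of all genes is not given by direction, but in 1 direction it cannot exceed 27.7%. List shares above 27.7% in 1 direction, such as the 33.3% of p53 targets that were higher, thus lie above it. The place of smaller shares, here and below, cannot be read. Gadd45a, a stress sensor of growth arrest, went from 19.6 ± 5.52 to 96.7 ± 76.8 CPM (log2 fold change 2.30, SE 0.31, FDR = 2.15e-07), with 8 of 9 mice above all 8 months-old mice. Cdkn1a went from 15.4 ± 6.36 to 75.9 ± 66.0 CPM (2.30, SE 0.34, FDR = 7.17e-07), with 9 of 9 mice above. Trp53inp1, a p53 target known for a role in autophagy and cell death, went from 14.4 ± 3.61 to 58.3 ± 41.8 CPM (2.01, SE 0.27, FDR = 1.99e-07). Phlda3, an inhibitor of Akt, fell instead, from 256 to 176 CPM (log2 fold change -0.54, FDR = 0.00015), as did Ei24 and Tigar, singled out after their values were seen (-0.42 for both, FDR = 7.49e-05 and 0.00194). Against 22 months, the log2 fold changes of Gadd45a, Cdkn1a and Trp53inp1 were 2.07, 1.71 and 1.96 (FDR = 1.33e-05, 0.000102 and 1.1e-05). Those of Phlda3 and Tigar, both -0.30, did not pass (FDR = 0.0325 and 0.029), whereas that of Ei24 did (-0.33, FDR = 0.00159). Bax and Ccng1, also singled out afterwards, had log2 fold changes of -0.09 and -0.18 (FDR = 0.44 and 0.0573).

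Among 18 regulators of p53, 15 passed the filter, 8 were higher (53.3%) and 1 was lower (6.67%), with a median of 0.33. Trp63, the gene of the related factor p63, was higher by 1.46 on the log2 scale (SE 0.29, FDR = 6.15e-05) and the DNA damage kinase gene Atm by 0.81 (SE 0.20, FDR = 0.000719), whereas the checkpoint kinase gene Chek2 fell by 0.94 (SE 0.18, FDR = 2.52e-05). Set against 22 months, 7 were higher and 1 lower, and Atm did not pass (0.62, FDR = 0.0101). Of 17 genes of the ectodysplasin receptors and noncanonical NF-kB signaling, 15 passed the filter, with 6 higher (40.0%), 2 lower (13.3%) and a median of 0.23. Map3k14, the gene of the kinase NIK, was higher by 0.88 (SE 0.18, FDR = 0.000101), Nfkb2 by 0.58 (SE 0.15, FDR = 0.00116), with 8 of 9 mice above all 8 months-old mice, and Birc3 by 0.57 (SE 0.16, FDR = 0.00219). Relative to 22 months, 4 were higher and 3 lower, and neither Nfkb2 (0.17, FDR = 0.355) nor Birc3 (0.35, FDR = 0.0618) passed, whereas Map3k14 did (0.64, FDR = 0.00446).

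Of 23 measured genes of the GATOR complexes and of lysosomal amino acid sensing, 2 were higher (8.70%), 5 were lower (21.7%) and 16 did not pass, with a median of -0.05, shares near or below those of all genes. Between 28 and 22 months, 2 were higher and 7 lower, beside 27.7% of all genes past the threshold in either direction. The 3 largest differences were in subunits of Ragulator, the lysosomal anchor of mTORC1, namely Lamtor4 (-0.54, SE 0.11, FDR = 6.5e-05), Lamtor1 (-0.53, SE 0.10, FDR = 4.84e-05) and Lamtor2 (-0.52, SE 0.09, FDR = 6.16e-06). Of 18 genes of the TSC and mTOR complexes and their kinases, 9 were higher (50%) and 2 lower (11.1%), with a median of 0.22. Eif4ebp1, the gene of a translation repressor that mTORC1 inactivates, went from 43.4 ± 8.26 to 140 ± 91.6 CPM (1.70, SE 0.29, FDR = 5.85e-06), Rictor of mTORC2 was higher by 0.81 (SE 0.18, FDR = 0.000293) and Tbc1d7 of the TSC complex was lower (-0.59, SE 0.10, FDR = 6.61e-06). In a fit of the 8 and 28 months-old mice alone, 5 of the 18 were higher, and between 28 and 22 months 10 were higher and 2 lower. All 6 genes named from these lists were past FDR 0.01 between 28 and 22 months too.

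Of 8 transcription factor genes whose products are known to induce sestrins or Ddit4, 6 were higher (75.0%) and none lower, with a median of 0.54, and 3 were higher in a fit of the 2 ages alone. Foxo1 was higher by 1.82 (SE 0.36, FDR = 6.46e-05), Foxo3 by 1.35 (SE 0.20, FDR = 7.04e-07), with 8 of 9 mice above all 8 months-old mice, and Nfe2l2, the gene of Nrf2, by 1.26 (SE 0.24, FDR = 4.24e-05). Of the 8, 5 were higher between 28 and 22 months, these 3 among them (2.33, 1.26 and 1.35). Of 11 glucocorticoid-induced genes, 9 were higher between 28 and 8 months (81.8%) and 10 between 28 and 22 months (90.9%), with none lower and medians of 0.85 and 1.04. The metallothionein genes Mt2 and Mt1 were higher by 3.63 (SE 0.57, FDR = 2.3e-06) and 2.84 (SE 0.50, FDR = 1.01e-05), with 7 of 9 mice above all 8 months-old mice in each, and Cebpd by 2.82 (SE 0.50, FDR = 1.27e-05). The spread was wide, 136 ± 222 CPM for Mt2 and 123 ± 174 CPM for Mt1 at 28 months (SD, n = 9), and the other 2 mice lay below all 8 months-old mice in Mt1. The summed level of the 11 genes had 605, 864 and 1148 TPM as lowest, median and highest value at 8 months and 650, 1884 and 6999 TPM at 28 months, and the mouse with 6999 TPM was replicate 2. Without that mouse, 8 of the 11 genes were higher.

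**Figure D5:**
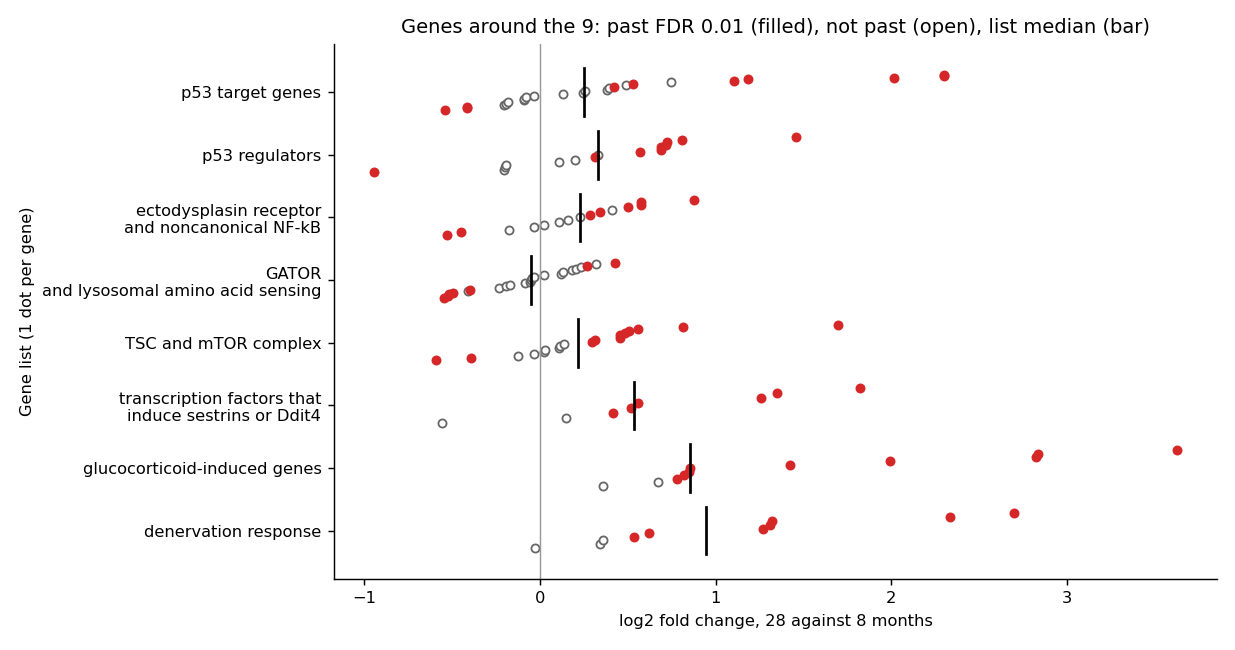
log2 fold change between 28 and 8 months (x axis) of the genes of 8 lists (y axis, 1 point per gene tested, sorted within the list), filled where past FDR 0.01 and open where not, with the median of each list as a black bar. The medians run from -0.05 for GATOR and lysosomal amino acid sensing and 0.25 for p53 targets to 0.85 for glucocorticoid-induced genes and 0.94 for the denervation response.

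Lists of cell type markers, of denervation response genes and of clock genes held some genes that differed with age. For cell type markers in bulk muscle, fewer cells of a type and less RNA per cell cannot be told apart. Of 12 genes of the denervation response, 10 were tested and 7 were higher (70.0%), among them Runx1 (2.33, SE 0.27, FDR = 1.74e-08), with 9 of 9 mice above all 8 months-old mice, and Myog (1.32, SE 0.34, FDR = 0.0013). Between 28 and 22 months 6 were higher, Runx1 (1.65) and Myog (1.19) among them. Their summed level ran from 106 to 246 TPM at 8 months and from 197 to 463 TPM at 28 months. Of 4 immune markers tested, 2 were higher, Ptprc (1.22, SE 0.29, FDR = 0.000475) and Csf1r (0.57, SE 0.16, FDR = 0.00291), but between 28 and 22 months none passed (Ptprc 0.39, FDR = 0.251, and Csf1r 0.33, FDR = 0.0868). Their list summed to 15.1 to 30.03 TPM at 8 months and 25.2 to 68.8 TPM at 28 months. Of 5 fibroblast markers, 3 were lower, Col3a1 (-2.28, SE 0.30, FDR = 1.32e-07), Col1a1 (-2.08, SE 0.33, FDR = 3.12e-06) and Lum (-0.89, SE 0.22, FDR = 0.00073). Their summed level ran from 682 to 986 TPM at 8 months and from 567.8 to 785 TPM at 28 months. Of 4 adipocyte markers 2 were lower, Plin1 (-1.77, FDR = 3.59e-05) and Adipoq (-1.45, FDR = 3.96e-05), and of 5 Schwann cell markers 1, S100b (-1.07, FDR = 0.0021). Of 5 erythroid markers Alas2 was higher (1.23, FDR = 0.00417), of 7 muscle fibre markers Myh1 was higher (0.67, FDR = 0.00777), and of 8 clock genes Nr1d1 was lower (-0.72, FDR = 0.000774). Between 28 and 22 months, Lum (FDR = 0.0419), Adipoq (FDR = 0.0178), S100b (FDR = 0.0201) and Alas2 (FDR = 0.0176) did not pass, and Col3a1, Col1a1, Plin1, Myh1 and Nr1d1 did, in the same direction. None of 4 endothelial and of 2 satellite cell markers tested passed. No marker had a median of 0 TPM, and the muscle fibre list, which includes Ckm, Acta1 and Myh4, summed to 97330 TPM or more in every mouse of 8 and 28 months. The part of these cells in the differences of the 9 genes was not tested.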

How the data were processed

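Gastrocnemius RNA of 50 mice was analysed. The authors trimmed reads with Cutadapt 1.9.1, dropped those under 30 nt, and assigned them, by strand, with kallisto 0.43.1 to protein-coding Ensembl transcripts of GRCm38, dividing a read evenly among the transcripts it fits. They deposited estimated counts per gene, which are whole numbers in the file, and TPM values. Depth is 13607229 to 21267375 counts per mouse, and the spread between mice sets the precision.

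The 9 genes and all lists were chosen with earlier results of these data known, and lists were written from general knowledge. The 12586 genes that reached 1 CPM in 8 or more mice were fitted with edgeR 4.0.16 (TMM, quasi-likelihood, 1 fit over 6 ages, Benjamini-Hochberg FDR 0.01, SE from the F statistic). Within-age relations used log2(TPM + 1) and 100000 permutations. Of each list, the 3 genes with the largest differences past FDR 0.01 are named, except 1 gene that is not reported here. Upper-quartile factors, DESeq2 1.42.0, limma 3.58.1 on TPM, no filter, a pseudocount of 0.1, the 2 ages alone, a replicate block and leaving out single mice were alternatives. The edgeR fit and the permutation test were tested on simulated data. Library identifiers run in the order of age, and no batch, lane or date of sequencing is given in the sources used here, so any such batch cannot be told apart from age. R 4.3.3 and Python 3.11.15 were used.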

Additional observations from a re-analysis of the deposited data

Results flagged for a closer look

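The lowest and the highest of the mice of each age were compared with the others for each of the 9 genes, in 54 groups of 8 or 9 mice, by Dixon's gap test at the 95% level, which chance passes in about 1 of 20 groups. A single mouse stood apart in 6 of the 54. In 28 months replicate 2, Sesn1 was at 349 TPM, against 15.2 to 174 TPM in the other 8 mice, and Mdm2 was at 103 TPM, against 52.4 to 67.7 TPM. This was also the mouse with the highest summed levels of immune markers (68.8 TPM) and of glucocorticoid-induced genes (6999 TPM) at 28 months. In 8 months replicate 2, Ddit4 was at 150 TPM, against 17.9 to 76.3 TPM in the others. Eda2r was at 21.7 TPM in 24 months replicate 4, below the 35.4 to 46.7 TPM of the others and within the 8-month range. Sesn2 was at 1.05 TPM in 8 months replicate 3, against 1.86 to 2.22 TPM, and Sesn3 at 7.97 TPM in 8 months replicate 8, against 3.95 to 5.36 TPM.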

How the results depend on the processing

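The number of genes past FDR 0.01 between 28 and 8 months, 4989, was between 3395 (the 2 ages alone) and 5181 (DESeq2) under the other settings and between 4336 and 5418 when 1 mouse was left out, the lowest without 28 months replicate 2. Of the 9 genes, 4 or 5 were past it throughout. The 28 against 22 months count, 3485, was between 3440 and 3721, and Eda2r was no longer past it there with upper-quartile factors (log2 fold change 0.57). Of p53 targets, 6 to 8 were higher and 2 or 3 lower. Sign changed for genes near 0, namely Sesn2 with upper-quartile factors (-0.027) and without 8 months replicate 3 (-0.054) or 8 (-0.0045), within a range of -0.054 to 0.064 when 1 mouse was left out, and Trp53 with limma on log2(TPM + 0.1) (4.79e-05). In the fit of the 2 ages alone, an alternative added after the data were seen for these lists, 3 of 8 transcription factor genes and 5 of 18 TSC and mTOR genes were higher, in place of 6 and 9, and that fit draws on fewer mice. The sign of each of the 10 within-age relations was kept under 3 other settings and without 28 months replicate 2. The labels do not say that replicate numbers pair the mice. The median correlation of same-numbered mice was 0.05 (lowest -0.55, over 121 pairs), against -0.006 for mice with other numbers, which cannot exclude a pairing. With the numbers as a replicate block, 4954 genes and 5 of the 9 were past the threshold, so no call on the 9 changed.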
